A study of Homo sapiens with 6 samples.

Results

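The SELENO genes encode selenoproteins named by the SELENO root symbol. The 10 genes SELENOF, SELENOH, SELENOI, SELENOK, SELENOM, SELENON, SELENOO, SELENOS, SELENOT and SELENOW were taken by symbol, from a given list, from the deposited table of 17687 genes, and all 10 were found. SELENOP and SELENOV share the root and were counted with the other selenoproteins. The rule used names and no measured value, but the members were chosen with earlier results of these data known. RNA was sequenced from KHM-5M cells, a line from an anaplastic thyroid cancer, after PBS as the negative control, sodium selenite (SS), or SS together with N-acetylcysteine (SS+NAC), a thiol antioxidant. All groups were grown in RPMI-1640 medium with fetal bovine serum. There were 2 libraries in each of the 3 groups, described in the study's methods as biological replicates, and all came from 1 cell line. No group had NAC alone. The labels state neither an SS or NAC dose with its unit nor an exposure time for these libraries.

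Selenoproteins contain selenocysteine (Sec), which is inserted where the ribosome meets a UGA codon in an mRNA whose 3′ untranslated region folds into a Sec insertion element. When selenium is short, the same codon is read as a stop, and some selenoprotein mRNAs are then degraded by nonsense-mediated decay, the pathway that removes mRNAs with an early stop far ahead of an exon junction. Thyroid tissue is rich in selenium and uses selenoproteins for thyroid hormone metabolism and for protection against peroxide.

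The members differ in where the Sec codon lies. The sequences around it are shown for 5 genes whose values are described in detail, because they place the codon early or late in the reading frame. They were read from GENCODE release 29 transcripts on GRCh38 and are written 5′ to 3′ as DNA, with the Sec codon in capitals.
SELENOT: atttgtgtttccTGAggttataggcgg
SELENOH: cattgcactagcTGAcgcgtctatggg
SELENOM: acctgcgggggaTGAcagctgaaccgc
SELENOS: tcatctggcggaTGAggctaa
SELENOI: ccaaactcagatTGActaggaatggaa

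The Sec codon of SELENOT is codon 49 of 195, in exon 2 at chr3:150622392-150622394 (plus strand). That of SELENOH is codon 44 of 122, in exon 2 at chr11:57741816-57741818 (plus strand), and that of SELENOM is codon 48 of 145, in exon 2 at chr22:31105951-31105953 (minus strand). In these 3 genes, and in SELENOW and SELENOO, a cysteine codon lies 3 codons ahead of the Sec codon, the spacing of a thioredoxin-like redox motif. SELENOS carries Sec at codon 188 of 189, in exon 6 at chr15:101272777-101272779 (minus strand), and the printed sequence ends with its stop codon. SELENOI carries it at codon 387 of 397, in exon 10 at chr2:26389068-26389070 (plus strand), which is the last exon. SELENOF carries Sec at codon 96 of 165, SELENOK at codon 92 of 94, and SELENON, with 2 annotated Sec codons, at codon 462 of 590 for the last of them. In 6 members (SELENOF, SELENOH, SELENOM, SELENON, SELENOT and SELENOW) the Sec codon ended more than 50 bases ahead of the last exon junction in the transcript used. In SELENOK and SELENOS the distance was 5 and 13 bases, and in SELENOI and SELENOO the codon lay beyond the last junction.

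**Figure D1:**
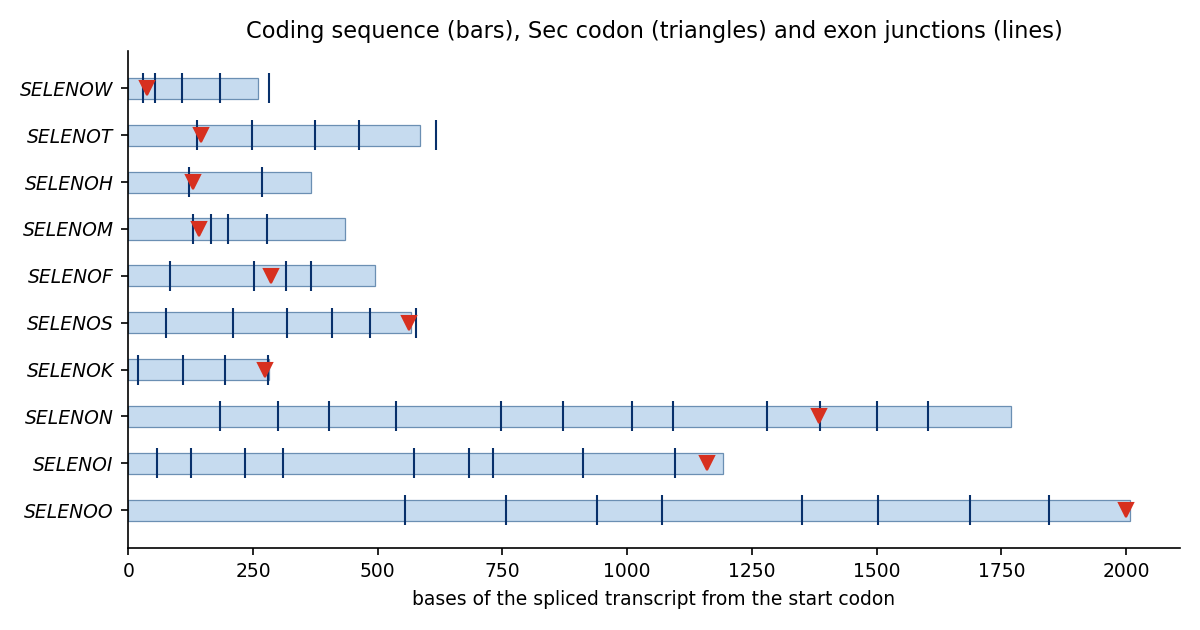
Coding sequence of each SELENO gene in bases from the start codon of the spliced GENCODE transcript (bars), with the Sec codon (triangles) and exon junctions (lines). The codon lies early in SELENOW (codon 13 of 87) and next to the end in SELENOO (codon 667 of 669).

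The label of the cells was set against markers, in TPM, the authors' scale that divides reads by transcript length and sets each library to the same total. Of the thyroid markers, the transcription factors PAX8 (104 to 134 TPM over the 6 libraries) and HHEX (25.9 to 29.8 TPM) were present. TG, which encodes thyroglobulin, stayed at or below 0.30 TPM, NKX2-1 at or below 0.20, SLC5A5 at or below 0.69, SLC26A4 at or below 0.63 and FOXE1 at or below 1.59. These 5 markers of differentiated thyroid follicular cells were thus near 0, while KRT8 (977 to 1398 TPM), KRT18 (731 to 1099 TPM) and VIM (5744 to 6621 TPM) were abundant. KRT8 (1266 and 1398 TPM), KRT18 (987 and 1099 TPM) and KRT7 (65.4 and 68.1 TPM) were highest in SS, and PAX8 (116 and 104 TPM) and EPCAM (3.85 and 3.96 TPM) lowest, with no overlap with the other groups. VIM was highest in SS, whereas the other 4 mesenchymal markers were lowest there. FN1 had 1131 and 1111 TPM in control, 889 and 661 in SS, and 1405 and 1810 in SS+NAC, and ZEB1 had 8.52 and 8.39 TPM in SS and at least 17.5 in the other libraries. CDH2 had 30.9 and 35.2 TPM in SS and 48.2 to 53.7 in the other libraries, and SPARC had 200 and 230 compared with 242 to 272 TPM. The part of these markers in the results was not tested. Of the other epithelial markers, KRT7 had 47.2 to 68.1 TPM, EPCAM at most 6.07, KRT19 at most 2.19 and CDH1 at most 0.29 TPM. Markers of other cell types were low for leukocytes (PTPRC at most 0.77 TPM, CD3E at most 0.06 TPM) and for endothelial cells, whose 4 genes summed to at most 0.92 TPM in each library. CD68 (70.5 to 109 TPM) and COL1A1 (167 to 273 TPM) were the most abundant genes of the leukocyte and fibroblast lists, with COL1A2 at or below 0.04 TPM. The leukocyte list summed to 85.9 and 90.2 TPM in control, 86.7 and 74.1 TPM in SS, and 104 and 114 TPM in SS+NAC, which lay above the other libraries. The fibroblast list summed to 229 and 227 TPM in control, 189 and 175 TPM in SS, and 284 and 266 TPM in SS+NAC. These groups did not overlap, and the part of the list in the results was not tested.

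The libraries held 17645545 and 22016655 expected counts in control, 23493415 and 23810056 in SS, and 23682740 and 22617180 in SS+NAC. All 10 members passed the filter on low counts, among 14005 genes. The lowest count of any member in any library was 448, for SELENOM.

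SELENOF, a thioredoxin-like protein of the endoplasmic reticulum (ER) that binds the glycoprotein folding sensor UGGT1, had the highest level of the family, with 155 and 148 TPM in the control libraries. SELENOW followed with 98.5 and 93.7 TPM and SELENOH with 78.0 and 80.8 TPM, and each of these 3 lay apart from the next. SELENOM (67.0 ± 6.11 TPM, SD, n = 2) and SELENON (67.0 ± 3.09 TPM) overlapped, as did SELENOS (55.0 ± 2.23 TPM) and SELENOT (54.3 ± 3.29 TPM). SELENOK had 46.1 ± 4.78 TPM. The lowest levels were those of SELENOO (21.2 ± 0.926 TPM) and SELENOI (17.8 and 17.5 TPM), which did not overlap in control.

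The first 4 places and the last 2 were filled by the same genes in each group. In SS, SELENON had the eighth level at 46.0 ± 2.94 TPM, overlapping SELENOK, and SELENOI stood further below SELENOO, at 9.01 ± 0.926 against 20.2 ± 1.68 TPM. SELENON and SELENOI were the longest members (4295 and 8250 bases), and change in SS followed transcript length over all tested genes, as given below. In SS+NAC, SELENOI (18.5 and 21.8 TPM) overlapped SELENOO (20.6 and 20.4 TPM). The summed level of the family was 670 and 640 TPM in control, 667 and 652 TPM in SS, and 680 and 745 TPM in SS+NAC. The control and SS sums overlapped, and both SS+NAC sums lay above them. SELENOF made up 20.8% to 24.5% of this sum in the 6 libraries, and SELENOI 1.28% to 2.92%.

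**Figure D2:**
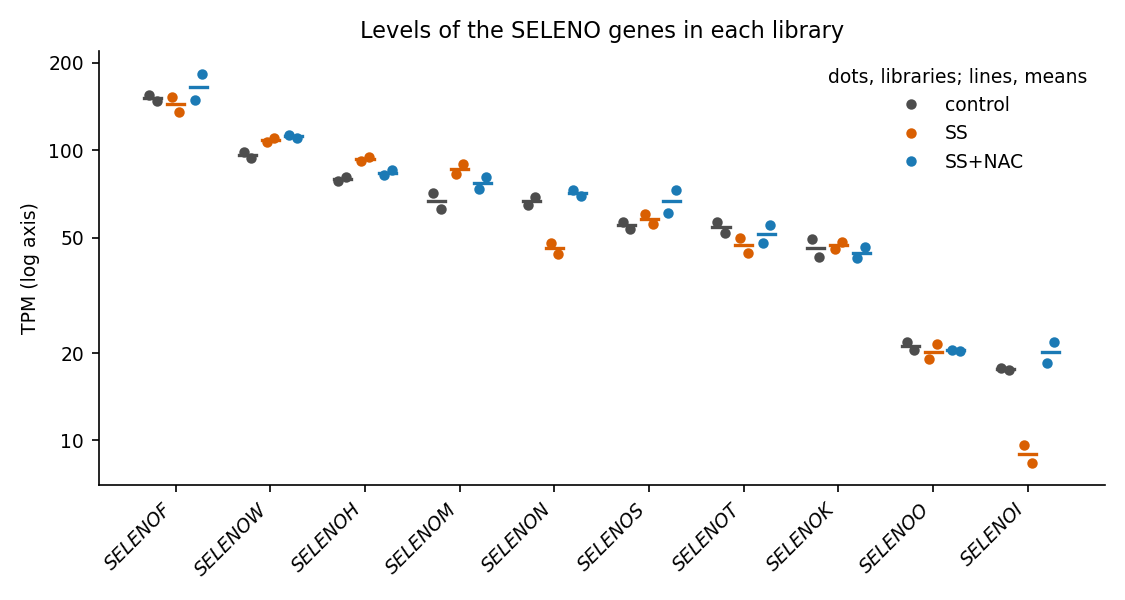
TPM of each SELENO gene (log axis) in the 6 libraries (dots) with group means (lines), ordered by the control mean. SELENOF is highest at 135 to 182 TPM, and SELENOI is the lowest in SS at 8.35 and 9.66 TPM.

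The comparison of SS with control asks what selenite did to these mRNAs. With edgeR's quasi-likelihood test and Benjamini-Hochberg adjustment over 14005 genes, 7 of the 10 members had an adjusted p of at most 0.05 (called here), against 40.0% of all tested genes. Of these, 5 rose (SELENOM, SELENOH, SELENOW, SELENOS and SELENOK) and 2 fell (SELENOI and SELENON). Fold changes are given on the log2 scale, from counts scaled to a common library size by TMM and printed as CPM. The median log2 fold change of the 10 members was 0.27, compared with 0.00304 over all tested genes. Both SS libraries lay outside the range of the control libraries in CPM for all 10 members, including the 3 that were not called, as they did for 73.2% of all tested genes (40.0% called). These were bulk libraries, in which fewer cells with an mRNA and less of it per cell cannot be told apart.

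Over all tested genes the direction of change followed transcript length. Among the members it did so except for SELENOT, which had 0.07 where genes of similar length had a median of -0.08. In the shortest eighth of the tested genes (effective length 183 to 1411 bases) the median log2 fold change of SS against control was 0.46, and in the longest eighth (6102 to 72966 bases) it was -0.46. SELENOM, SELENOW, SELENOK and SELENOS, at 695, 868, 1078 and 1262 bases, belong to the shortest eighth, and SELENOI, at 8250 bases, to the longest. In SS against control 70.6% of the shortest eighth were called (1217 higher and 19 lower) and 64.9% of the longest (30 higher and 1106 lower). In the eighths between them 15.8% to 50.7% were called. The 7 calls among the members are to be read beside these shares. When each library was given an offset for length, 0 of the 10 members were called by edgeR, against 9.23% of all tested genes. Under this offset 3 members had an unadjusted p under 0.05. Without the offset, DESeq2 called 6, and 33.7% of all tested genes. The offset turned the sign of SELENOF, SELENOK, SELENOS and SELENOW. Whether the length trend arose in the cells or in the making of the libraries was not tested, and the offset value is given beside each member.

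**Figure D3:**
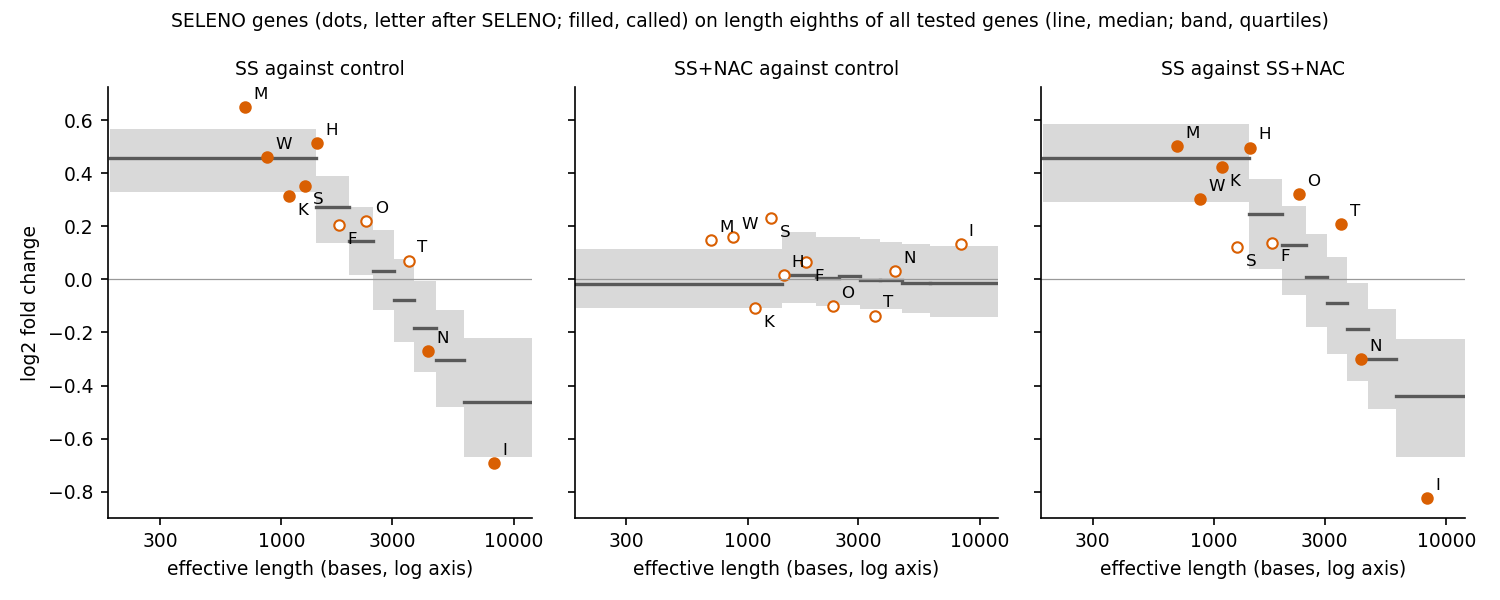
Log2 fold change against effective transcript length (log axis) for the SELENO genes (dots, filled where called) and for eighths of all tested genes by length (lines, medians; bands, quartiles; the longest eighth runs past the axis). In SS against control the medians run from 0.46 to -0.46, and SELENOM (0.65) and SELENOI (-0.69) lie at the 2 ends of the family.

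Among the thioredoxin-like members, SELENOW, a small cytosolic protein, had 43.0 and 41.7 CPM in control, 54.6 and 61.9 CPM in SS, and 49.4 and 45.2 CPM in SS+NAC. Both SS libraries were above all others, and the SS+NAC libraries were above the control libraries. The log2 fold change of SS against control was 0.46 (SE 0.0874, edgeR adjusted p = 0.00233). It was the same as the median of the genes of its length eighth, 0.46, and -0.01 with the length offset (adjusted p = 0.970).

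SELENOH, a nuclear protein with a thioredoxin-like fold, had 56.0 and 59.2 CPM in control, 77.1 and 87.3 CPM in SS, and 58.9 and 57.6 CPM in SS+NAC. The SS libraries stood above the other 4, among which control and SS+NAC overlapped. Its log2 fold change was 0.51 (SE 0.0822, edgeR adjusted p = 0.00101), above 88.7% of the genes in its length eighth, whose median was 0.27. The offset for length gave 0.19 (95% interval 0.03 to 0.35, adjusted p = 0.123). The counts of SELENOH were not whole in any of the 6 libraries, as RSEM gives where reads fit more than 1 place. Its values are therefore less certain. Its exons share 207 bases in GENCODE with AP001931.1 on the same strand, which is not in the table used here, and whether this overlap gave the fractions was not tested.

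SELENOM, an ER protein of the same fold family as SELENOF, had 24.9 and 22.3 CPM in control, 33.7 and 40.2 CPM in SS, and 25.8 and 26.4 CPM in SS+NAC. The groups did not overlap, and the SS+NAC libraries were close above control. Its log2 fold change of 0.65 (SE 0.103, edgeR adjusted p = 0.000939) was the largest rise of the family. The value was 0.13 with the length offset (adjusted p = 0.391).

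SELENOF and SELENOT were not called in SS against control. SELENOF had 139 and 135 CPM in control, 160 and 155 CPM in SS, and 133 and 153 CPM in SS+NAC. Its SS libraries were above all others, and control and SS+NAC overlapped. The difference of SS from control was 0.20 on the log2 scale (SE 0.0822, edgeR adjusted p = 0.0716). It was called without SS+NAC replicate 1 (0.20, adjusted p = 0.0254) or replicate 2 (0.20, adjusted p = 0.0261), with at least 10 counts in every library (adjusted p = 0.0377) and on the compared libraries only (adjusted p = 0.0229), and was -0.03 with the length offset. On the TPM scale the order of the group means was the opposite, 152 ± 5.37 in control and 144 ± 12.3 in SS, with overlapping libraries. SELENOT, an ER thioredoxin-like protein, had 101 and 94.2 CPM in control and 103 and 101 CPM in SS, a difference of 0.07 on the log2 scale (95% interval -0.10 to 0.24, edgeR adjusted p = 0.491). The difference was 0.18 with the length offset (edgeR adjusted p = 0.137), and 0.05 to 0.11 when single libraries were left out. On the TPM scale SELENOT was lower in SS (49.7 and 44.3) than in control (56.6 and 51.9), with no overlap.

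SELENOS and SELENOK are ER membrane proteins that take part in ER-associated degradation, the removal of misfolded proteins. SELENOS had 35.8 and 34.5 CPM in control, 44.5 and 45.3 CPM in SS, and 38.9 and 43.5 CPM in SS+NAC. Its SS libraries were the highest, and both SS+NAC libraries lay between them and control. The log2 fold change of SS against control was 0.35 (SE 0.0822, edgeR adjusted p = 0.00666), below the median of its length eighth, and -0.0095 with the length offset (adjusted p = 0.960).

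SELENOK had 26.8 and 23.6 CPM in control, 28.9 and 33.6 CPM in SS, and 23.1 and 23.5 CPM in SS+NAC. The SS libraries were above the others, with a gap to control smaller than the difference between the SS libraries. SELENOK rose by 0.31 on the log2 scale (SE 0.100, edgeR adjusted p = 0.0296). The call was lost with DESeq2, with a replicate block (adjusted p = 0.0512), without control replicate 2 (0.25, adjusted p = 0.189) and without SS replicate 2 (0.20, adjusted p = 0.243). Given the length offset, the value was -0.10 (adjusted p = 0.541). On the TPM scale the control (49.5 and 42.7) and SS (45.7 and 48.2) libraries of SELENOK overlapped, as did those of SELENOS (56.6 and 53.4 against 60.1 and 55.6).

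SELENON, an ER membrane protein linked to calcium uptake by the ER and mutated in a congenital myopathy, had 140 and 152 CPM in control, 121 and 121 CPM in SS, and 158 and 140 CPM in SS+NAC. The SS libraries were below the other 4, among which the groups overlapped. SELENON changed by -0.27 on the log2 scale (SE 0.0828, edgeR adjusted p = 0.0244), and -0.06 with the length offset (adjusted p = 0.702). The call was lost without control replicate 1 (-0.33) or 2 (-0.18) and without SS replicate 1 (-0.27) or 2 (-0.28), with adjusted p from 0.0596 to 0.288, and with a replicate block (adjusted p = 0.0546). Its counts were not whole in any library, so its values are less certain. Its exons share 378 bases with AL020996.2 on the same strand, which is not in the table used here either.

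SELENOI encodes an ethanolamine phosphotransferase, which makes phosphatidylethanolamine in the last step of the CDP-ethanolamine branch of the Kennedy pathway. It had 73.6 and 74.0 CPM in control, 46.8 and 44.5 CPM in SS, and 76.9 and 84.8 CPM in SS+NAC. The SS libraries were far below the others, and the SS+NAC libraries were above control. The log2 fold change of SS against control was -0.69 (SE 0.0787, edgeR adjusted p = 0.000226), the largest size in the family. The median of the longest eighth was -0.46, and 22.8% of its genes had a lower value than SELENOI. The length offset gave -0.21 (95% interval -0.37 to -0.05, adjusted p = 0.0944). The counts of SELENOI were not whole in any library. ADGRF3 shares 509 exon bases with it on the other strand and had 8.38 to 21.2 counts, compared with 974 to 2041 for SELENOI. Whether the counting used strand is not given in the sources used here.

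SELENOO, a mitochondrial enzyme that transfers AMP to other proteins, had 25.5 and 24.4 CPM in control, 26.0 and 32.1 CPM in SS, and 24.1 and 22.3 CPM in SS+NAC. The SS libraries differed from each other more than the lower of them differed from control. The difference was 0.22 on the log2 scale (SE 0.108, edgeR adjusted p = 0.131). With the length offset it was 0.11 (adjusted p = 0.561). It was 0.06 without SS replicate 2, and 0.36 and called without SS replicate 1 (adjusted p = 0.0299). On the TPM scale the mean was lower in SS (20.2 ± 1.68) than in control (21.2 ± 0.926), with overlapping libraries.

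**Figure D4:**
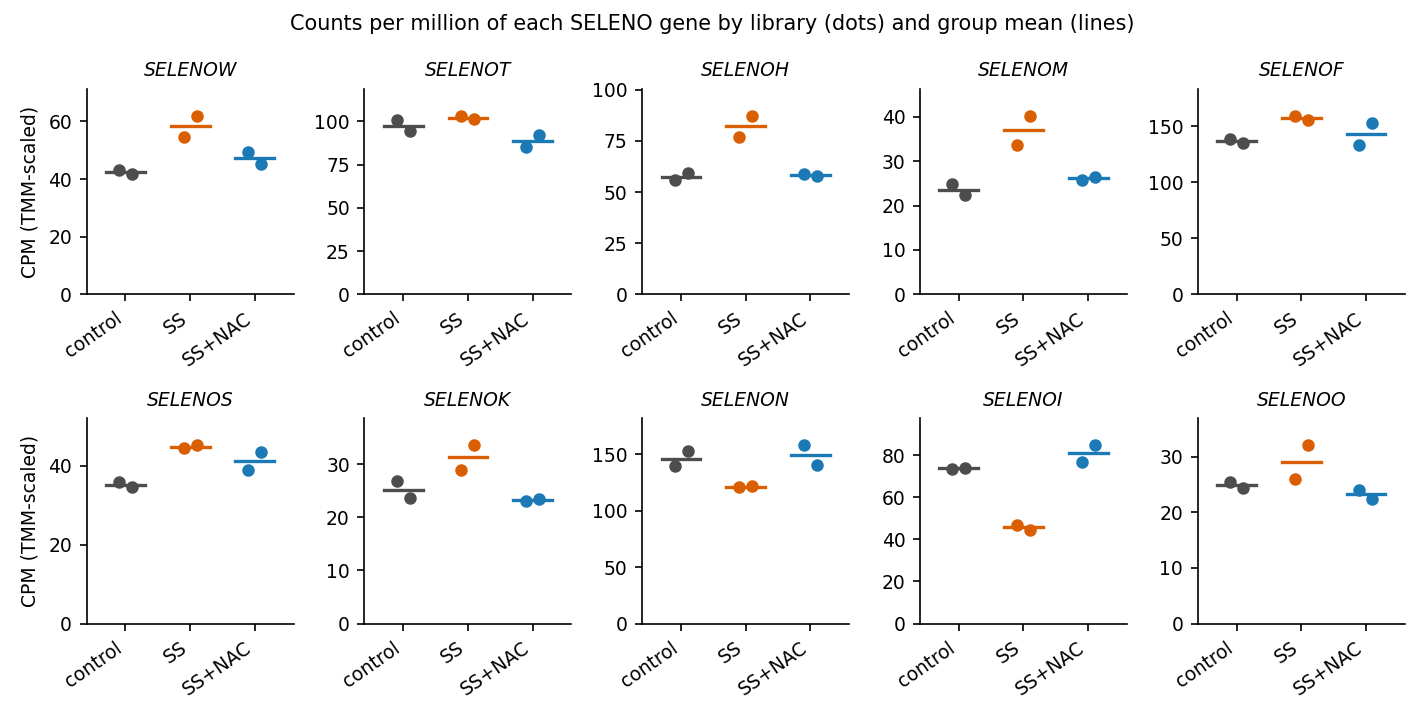
TMM-scaled CPM of each SELENO gene in the 6 libraries (dots) with group means (lines), each axis starting at 0. SELENOI is lower in SS (46.8 and 44.5 CPM) than in control (73.6 and 74.0 CPM) and SS+NAC (76.9 and 84.8 CPM), while SELENOM and SELENOH are higher in SS.

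The comparison of SS with SS+NAC asks how the family differed when the antioxidant was added to selenite. It uses the same SS libraries as the comparison with control, so the fold changes are not independent. Of the 10 members, 8 were called by edgeR, against 42.7% of all tested genes, 6 of them higher in SS (SELENOM, SELENOH, SELENOK, SELENOO, SELENOW and SELENOT) and 2 lower (SELENOI and SELENON). In this comparison 69.5% of the shortest length eighth and 64.9% of the longest were called, and 21.3% to 49.9% of those between. The median log2 fold change of the members was 0.25, compared with -0.03 over all tested genes. Without SS replicate 2, 3 members (SELENOH, SELENOI and SELENOM) and 22.7% of all tested genes were called. Under the length offset 2 were called, against 14.5% of all tested genes.

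These 2 were SELENOI and SELENOT, in opposite directions. SELENOI was lower in SS than in SS+NAC by -0.82 on the log2 scale (SE 0.0781, edgeR adjusted p = 0.000148). Against genes of its length the difference was smaller, -0.36 with the offset (95% interval -0.52 to -0.21, edgeR adjusted p = 0.00958). It was called under each of the 14 alternative fits (adjusted p 1.45e-12 to 0.0250), and it was the 1 member called with Bonferroni adjustment.

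SELENOT had 85.1 and 91.9 CPM in SS+NAC, below both SS libraries (103 and 101 CPM) and both control libraries. Its log2 fold change of SS against SS+NAC was 0.21 (SE 0.0751, edgeR adjusted p = 0.0463), and 0.32 with the length offset (95% interval 0.17 to 0.48, adjusted p = 0.0155). In contrast to most members, its value lay further from 0 with the offset. The median of its length eighth was -0.09, and SELENOT was above 87.9% of these genes. The call made with no offset was lost without control replicate 1 (0.21) or 2 (0.23), SS replicate 1 (0.19) or 2 (0.22) and SS+NAC replicate 1 (0.15), with adjusted p from 0.0637 to 0.169. It was also lost with no filter on low counts (adjusted p = 0.0676), with a replicate block (adjusted p = 0.106) and on the compared libraries only (adjusted p = 0.0683). On the TPM scale the mean of SELENOT was lower in SS (47.0 ± 3.82) than in SS+NAC (51.4 ± 5.22), with overlapping libraries. SERP1, on the other strand, shares 61 exon bases with SELENOT and had 2428 to 3066 counts.

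For SELENOH the log2 fold change of SS against SS+NAC was 0.50 (SE 0.0815, edgeR adjusted p = 0.00107), and for SELENOM 0.50 (SE 0.100, edgeR adjusted p = 0.00284). Given the length offset these were 0.19 (adjusted p = 0.0964) and -0.05 (adjusted p = 0.750). SELENOK (0.42), SELENOO (0.32), SELENOW (0.30) and SELENON (-0.30) were called with edgeR adjusted p between 0.00650 and 0.0332, and none of these 4 with the offset. For SELENOK, SELENOO and SELENON the offset gave 0.0089, 0.23 and -0.09. Calls were lost without SS replicate 2 for SELENOK (0.31), SELENOO (0.16), SELENOW (0.21) and SELENON (-0.30), without SS+NAC replicate 2 for SELENOO (0.27) and SELENOW (0.24), and without SS replicate 1 (-0.30) or SS+NAC replicate 1 (-0.21) for SELENON. That of SELENOO was also lost with a replicate block (adjusted p = 0.0518). SELENOF (0.14, edgeR adjusted p = 0.203) and SELENOS (0.12, edgeR adjusted p = 0.251) were not called. SELENOF was called without SS+NAC replicate 2 (0.24) and was 0.04 without SS+NAC replicate 1. SELENOS was 0.04 without SS+NAC replicate 1 and 0.20 without SS+NAC replicate 2. The TPM means of SELENOW (109 in SS and 111 in SS+NAC), SELENOO (20.2 and 20.5), SELENOF (144 and 166) and SELENOS (57.8 and 67.0) were lower in SS, opposite to CPM. The offset turned the sign of SELENOW to -0.18, SELENOS to -0.23 and SELENOF to -0.08, none of them called.

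The comparison of SS+NAC with control shares libraries with both others and asks how cells given both compounds differed from control. Without a group given NAC alone, the effect of NAC itself and its effect on the response to selenite cannot be told apart. This also holds for SS against SS+NAC. By edgeR's test 0 of the 10 members were called, against 2.01% of all tested genes, with or without the length offset. DESeq2 also called 0, beside 2.31% of all tested genes. In the edgeR fits the members with an unadjusted p under 0.05 numbered 1 without the offset (SELENOS) and 2 with it (SELENOS and SELENOW). The log2 fold changes lay between -0.14 (SELENOT) and 0.23 (SELENOS, 95% interval 0.05 to 0.41, adjusted p = 0.203), with a median of 0.05. For SELENOI the value was 0.13 (95% interval -0.04 to 0.30) and for SELENOM 0.15 (95% interval -0.08 to 0.38). Leaving out single libraries gave 0.06 to 0.20 for SELENOI, 0.07 to 0.22 for SELENOM and -0.19 to -0.08 for SELENOT. It gave -0.20 to -0.02 for SELENOK, -0.16 to -0.05 for SELENOO and 0.09 to 0.22 for SELENOW. In CPM the groups did not overlap for 7 members, compared with 47.6% of all tested genes (2.01% called), and overlapped for SELENOF, SELENOH and SELENON. SELENOS was called without SS+NAC replicate 1 (0.31) and was 0.15 without SS+NAC replicate 2. The small values of SELENOF (0.07), SELENOH (0.02) and SELENON (0.03) depended on single libraries in their sign. In this comparison SELENOF was -0.04 without SS+NAC replicate 2, SELENOH was -0.02 without control replicate 1 and -0.0018 without SS+NAC replicate 1, and SELENON was -0.03 and -0.06 without the same 2 libraries. In this comparison the medians of the length eighths lay between -0.02 and 0.02.

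**Figure D5:**
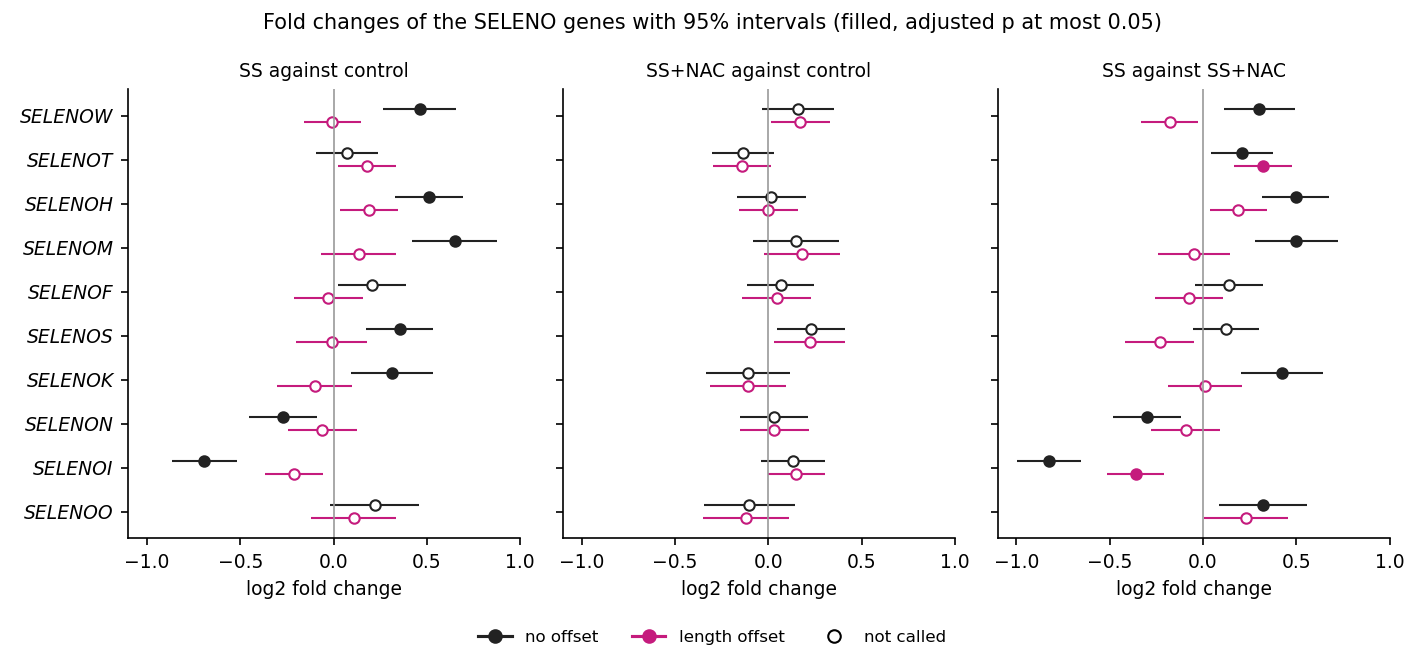
Log2 fold changes of the SELENO genes with 95% intervals in the 3 comparisons, without (black) and with (pink) the length offset, and filled where the adjusted p was at most 0.05. SELENOI (-0.36) and SELENOT (0.32) in SS against SS+NAC are the filled points with the offset.

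The position of the Sec codon was set beside the change in SS against control. The 6 members with a Sec codon more than 50 bases ahead of the last junction had log2 fold changes of 0.65 (SELENOM), 0.51 (SELENOH), 0.46 (SELENOW), 0.20 (SELENOF), 0.07 (SELENOT) and -0.27 (SELENON). The other 4 had 0.35 (SELENOS), 0.31 (SELENOK), 0.22 (SELENOO) and -0.69 (SELENOI). With the length offset the 6 had 0.13 (SELENOM), 0.19 (SELENOH), -0.0060 (SELENOW), -0.03 (SELENOF), 0.18 (SELENOT) and -0.06 (SELENON). The other 4 then had -0.0095 (SELENOS), -0.10 (SELENOK), 0.11 (SELENOO) and -0.21 (SELENOI). Both sets thus held values on either side of 0 with and without the offset, and no test was made between them.

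Other genes of the pathways around the family were counted from lists. Of 15 other selenoprotein genes, 13 were in the table used here, and 4 of these (GPX2, DIO1, SELENOP and SELENOV) did not pass the filter on low counts. Of the 9 tested, 5 rose and 1 fell in SS against control, with a median log2 fold change of 0.22, beside 40.0% called of all tested genes. GPX4, which reduces lipid peroxides, rose by 0.60 (SE 0.0730, edgeR adjusted p = 0.000290), and GPX1, the cytosolic glutathione peroxidase and the most abundant at 624 TPM, by 0.48. DIO2, a deiodinase that activates thyroid hormone, fell by 1.03 at a mean level of 0.40 TPM. The length offset gave 0.15 for GPX4, 0.08 for GPX1 and -0.64 for DIO2. The call of DIO2 was lost with DESeq2 (adjusted p = 0.0938) and without control replicate 2 (-0.74) or SS replicate 2 (-0.85), and that of GPX1 without control replicate 1 (0.45) or SS replicate 2 (0.31). By edgeR with the length offset 0 of the 9 were called, beside 9.23% of all tested genes.

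TXNRD1, which encodes the cytosolic thioredoxin reductase, was named after its values were seen. It was the 1 of these genes called in SS+NAC against control, beside 2.01% of all tested genes. Its log2 fold change there was 1.19 (SE 0.0787, edgeR adjusted p = 1.64e-05). It was -0.07 in SS against control (edgeR adjusted p = 0.536), which was not called, and -1.25 in SS against SS+NAC (edgeR adjusted p = 1.93e-05). The calls made with the length offset in the last comparison were TXNRD1 (-1.08), TXNRD2 (0.41) and SEPHS2 (0.25), beside 14.5% of all tested genes. That of SEPHS2 was lost with the replicate number as a block (adjusted p = 0.0894).

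Of the 14 genes for Sec insertion, 7 rose and 3 fell in SS against control (median 0.17), beside 40.0% called of all tested genes. PSTK, the kinase that phosphorylates the Ser-loaded Sec tRNA, rose by 0.58, and RPL30, a ribosomal protein that binds the Sec insertion element, by 0.48 (-0.09 with the length offset). SECISBP2L, a paralog of the Sec insertion element binding protein, fell by 0.67 and ALKBH8, which modifies the wobble base of the Sec tRNA, by 0.69. Named after their values were seen, SECISBP2 fell by 0.32 and EEFSEC, the elongation factor for Sec, rose by 0.31. The length offset gave 0.21 for PSTK, -0.23 for SECISBP2L, -0.20 for SECISBP2 and 0.18 for EEFSEC. Calls were lost without control replicate 1 for PSTK (0.63), RPL30 (0.42), SECISBP2 (-0.30) and EEFSEC (0.31), and without control replicate 2 for PSTK (0.56), SECISBP2 (-0.31) and EEFSEC (0.33). They were also lost with DESeq2 for PSTK (adjusted p = 0.0740), without SS replicate 1 for PSTK (0.49), and without SS replicate 2 for RPL30 (0.35), SECISBP2 (-0.29) and EEFSEC (0.23). ALKBH8 was the 1 gene of the list called with the length offset (-0.53, edgeR adjusted p = 0.0354), beside 9.23% of all tested genes. ALKBH8 was not called when a replicate block was added (adjusted p = 0.0509).

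Of the 16 nonsense-mediated decay genes, 5 rose and 8 fell (median -0.20 at a median effective length of 4471 bases), beside 40.0% called of all tested genes. In the length eighth that holds this median, 34.0% of genes were called, 48 higher and 547 lower. SMG1, the kinase of UPF1, fell by 0.96 and XRN1, a 5′ to 3′ exonuclease, by 0.84, while the exon junction proteins MAGOH and EIF4A3 rose by 0.53 and 0.47. For XRN1, MAGOH and EIF4A3 the values were -0.31, 0.03 and 0.21 with the length offset, none of them called. EIF4A3 is also on the Sec insertion list, as SEPHS2 is on that and the list of other selenoproteins. Under the length offset SMG1 (-0.31, edgeR adjusted p = 0.0189) and RBM8A (0.57, edgeR adjusted p = 0.00385) were called, beside 9.23% of all tested genes. SMG1 was not called when a replicate block was added (adjusted p = 0.0568). RBM8A, the partner of MAGOH, was named after its values were seen. Without the offset RBM8A rose by 0.28, a call lost without control replicate 1 (0.26) or 2 (0.32) or SS replicate 2 (0.20), and that of EIF4A3 was lost without control replicate 1 (0.37).

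The partners of SELENOS and SELENOK in ER-associated degradation numbered 19, of which 5 rose and 3 fell in SS against control (median 0.08). This is near the 40.0% called of all tested genes. In the length eighth that holds the list's median of 3175 bases, 21.0% of genes were called, 77 higher and 291 lower. UFD1, a cofactor of the VCP segregase and the most abundant of the list at 179 TPM, rose by 0.52 (0.18 with the length offset), and SEL1L, the adaptor of the HRD1 ubiquitin ligase, fell by 0.77. DERL3, a derlin, rose by 1.17 at a mean of 0.933 TPM, a call lost with no filter on low counts (adjusted p = 0.0513) and without control replicate 1 (0.97) or 2 (1.48) or SS replicate 1 (1.32) or 2 (1.01). With the length offset SEL1L (-0.35), DERL2 (0.54) and VCP (0.42) were called, beside 9.23% of all tested genes. DERL2 and VCP were named after their values were seen. Without the offset DERL2 rose by 0.33, a call lost without control replicate 1 (0.33). VCP had 0.26 (edgeR adjusted p = 0.0560), and 0.15 without control replicate 1. It was called without control replicate 2 (0.40) or SS+NAC replicate 1 (0.26) or 2 (0.26). VCP was also called with DESeq2 (adjusted p = 0.0257), with at least 10 counts in every library (adjusted p = 0.0269) and on the compared libraries only (adjusted p = 0.0154). HERPUD1 was the 1 gene of the list called in SS+NAC against control (0.34, edgeR adjusted p = 0.0463), beside 2.01% of all tested genes. It was also named afterwards. Its call was lost without any 1 of the libraries other than SS+NAC replicate 1 (0.31 to 0.36, adjusted p 0.0741 to 0.357), and with RLE size factors, DESeq2, no filter, a replicate block or the compared libraries only (adjusted p 0.0521 to 0.115).

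The list of ER folding and glycoprotein quality control holds the partners of SELENOF and has a median effective length of 3542 bases. In the length eighth that holds this median, 21.0% of genes were called in SS against control, 77 higher and 291 lower. Of the list, 5 of 14 fell and 0 rose (median -0.19), a share near the 40.0% called of all tested genes. They were UGGT2 (-0.66, and -0.37 with the length offset), the co-chaperone DNAJC3 (-0.59, and -0.25), the chaperone HSP90B1 (-0.47) and, named after their values were seen, UGGT1 (-0.41, and 0.13 with the length offset) and calnexin, CANX (-0.29, and -0.07). The call of CANX was lost without control replicate 1 (-0.30) or 2 (-0.25) or SS replicate 2 (-0.25). CALR, the most abundant at 1041 TPM, had 0.05 (edgeR adjusted p = 0.647). HSP90B1 was the 1 gene called with the length offset, beside 9.23% of all tested genes, at the same value of -0.47 (edgeR adjusted p = 0.00698).

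Around SELENOI, the list held Kennedy pathway genes together with PEMT and PISD, which act outside that pathway. Of its 11 genes 3 rose and 1 fell (median 0.10), a share near the 40.0% called of all tested genes. In the length eighth that holds the list's median of 2346 bases, 21.6% of genes were called, 340 higher and 39 lower. ETNK1, the kinase that opens the ethanolamine branch, fell by 0.57 (-0.26 with the length offset), CHKB, a choline kinase, rose by 0.40 (0.13), and PEMT, which methylates phosphatidylethanolamine, by 0.34 (-0.11 with the length offset). The third rise was that of PISD (0.25), named after its value was seen, which makes phosphatidylethanolamine in mitochondria. Calls were lost without control replicate 1 for PEMT (0.33) and PISD (0.26), without control replicate 2 for PEMT (0.37), PISD (0.26) and CHKB (0.33), without SS replicate 1 for PISD (0.25) and CHKB (0.32), and without SS replicate 2 for PEMT (0.19) and PISD (0.25). That of PISD was also lost with DESeq2 (adjusted p = 0.0551) and a replicate block (adjusted p = 0.0595), and that of PEMT with no filter on low counts (adjusted p = 0.0549). The 1 call with the length offset was that of PCYT1A (-0.29, edgeR adjusted p = 0.0382), beside 9.23% of all tested genes. PCYT1A was also named afterwards and was not called when a replicate block was added (adjusted p = 0.0854).

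Around SELENON, 6 of 10 tested ER calcium genes fell and 1 (ORAI1, 0.25 and -0.05 with the length offset, named after its value was seen) rose, with a median of -0.40 and a median effective length of 5720 bases. Of all tested genes 40.0% were called, and in the length eighth that holds this median 50.7% (27 higher and 861 lower). RYR1 did not pass the filter on low counts. RYR2, a calcium release channel, fell by 1.05 at a mean of 0.368 TPM, and the inositol trisphosphate receptors ITPR2 and ITPR3 fell by 0.95 and 0.54. The length offset gave -0.39 for RYR2 and -0.04 for ITPR3. ATP2A2, the ER calcium pump, had the highest level at 93.8 TPM and fell by 0.31 (0.07 with the length offset). Calls were lost without control replicate 1 for ORAI1 (0.21), without control replicate 2 for ORAI1 (0.32) and ATP2A2 (-0.23), and without SS replicate 2 for ORAI1 (0.20) and ATP2A2 (-0.31). ITPR2 was the 1 gene called with the length offset (-0.37, edgeR adjusted p = 0.0360), beside 9.23% of all tested genes. ITPR2 was not called when a replicate block was added (adjusted p = 0.0747). The block without the offset ended the call of ORAI1 (adjusted p = 0.0537).

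In SS against SS+NAC, 6 of the 9 other selenoproteins were called (5 higher and 1 lower), 10 of 14 Sec insertion genes (6 higher and 4 lower) and 8 of 16 nonsense-mediated decay genes (3 higher and 5 lower). The calls numbered 7 of 19 degradation partners (3 higher and 4 lower), 7 of 14 ER folding genes (0 higher and 7 lower), 4 of 11 genes of the Kennedy pathway list with PEMT and PISD (CHPT1, PEMT and PISD higher and ETNK1 lower, CHPT1 named after its value was seen) and 8 of 10 ER calcium genes (1 higher and 7 lower), beside 42.7% of all tested genes. By edgeR with the length offset these became 3, 5, 3, 3, 2, 0 and 0, in the same order, beside 14.5% of all tested genes.

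Genes with the most similar pattern were sought for the 3 members with the largest changes in SS against control, by the root mean square (RMS) difference of centred log2 CPM over the 6 libraries, among the 9527 tested genes that averaged 10 CPM or more. For SELENOI these were DGKH (RMS 0.0174), SLC35D1 (0.0263) and HEG1 (0.0333), with effective lengths of 17458, 6492 and 9481 bases. For SELENOM they were TREX1 (RMS 0.0406), CCDC167 (0.0476) and COA6 (0.0563), with lengths of 1083, 596 and 712 bases. For SELENOH they were RPL10A (RMS 0.0196), MDH2 (0.0237) and TAGLN2 (0.0239), with lengths of 707, 2261 and 1401 bases. The genes most like SELENOI were thus long and those most like SELENOM short, while those most like SELENOH had 707 to 2261 bases. The search matched the change itself, which followed length over all tested genes, so these lengths are not a separate result.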

How the data were processed

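The members and lists were chosen with earlier results of these data known. The authors sequenced polyadenylated RNA as single-end reads of 50 bases on a BGIseq500. The submitters' processing notes name HISAT2 2.0.4, Bowtie2 2.2.5 and RSEM 1.2.12, and the annotation release is not given in the sources used here. The authors deposited expected counts from RSEM, of which 44.8% were not whole (tolerance 0.005). The authors deposited TPM values per library, which were used for levels. The authors deposited FPKM values, from which effective lengths were derived with the counts. The table also holds 9 columns of group means and 9 of the authors' comparisons, which were not used. Its strand for SELENOM is plus, whereas GENCODE release 29 gives minus, which was used.

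Expected counts were rounded, filtered with filterByExpr (14005 genes kept), scaled with TMM and fitted in edgeR 4.0.16 (R 4.3.3) over all 6 libraries, with 2 a group. Genes were called at a Benjamini-Hochberg adjusted p of at most 0.05 from the quasi-likelihood test. The biological coefficient of variation was 6.74%. Replicates differed by more than sampling noise (chi-square per degree of freedom 3.05 in control, 7.12 in SS and 11.7 in SS+NAC). The fits were tested on simulated data.

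The length offset was a lowess fit (span 0.3) per library of each gene's deviation of log2 CPM on log effective length. Other alternatives were DESeq2 1.42.0 (Wald test), its size factors, other filters, the compared libraries only, a replicate block, Bonferroni adjustment and leaving out each library.

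Named genes were all members and, from each other list, the called genes of SS against control with the 3 largest changes that reached 1 CPM as the mean of some group, plus the most abundant by TPM. Sec codons were read from GENCODE release 29 on GRCh38, using the principal transcript with the lowest number and the Sec codon nearest its end. Tables and figures were made in Python with pandas, numpy and matplotlib.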

Additional observations from a re-analysis of the deposited data

How the results depend on the processing

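With 2 libraries a group, 1 cell line and a trend with transcript length that moves with SS, differences between members can be read only together with their lengths. In SS against control, the length offset called 1292 genes and 0 members, and the replicate block with length offset 847 genes and 0 members. Bonferroni adjustment called 220 genes and 0 members. In SS against SS+NAC these counts were 2026 genes and 2 members, 1342 genes and 2 members, and 191 genes and 1 member. In SS+NAC against control, Bonferroni adjustment left 40 genes. The cause of these shifts was not tested, except that Bonferroni adjustment is stricter by construction.

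The replicate numbers were not found to pair the libraries (correlations of deviations 0.113, -0.105 and -0.175). With a replicate block, 4857, 211 and 5136 genes and 5, 0 and 6 members were called in SS against control, SS+NAC against control and SS against SS+NAC. The calls lost were those of SELENOK and SELENON in the first and of SELENOO and SELENOT in the last.

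Leaving out each library gave 3118 to 6579 genes and 5 to 8 members in SS against control, 98 to 1086 genes and 0 to 1 member in SS+NAC against control, and 3250 to 6339 genes and 3 to 7 members in SS against SS+NAC. A group left with 1 library is assumed to vary like the others. The fewest genes were called without control replicate 1 in the first 2 comparisons and without SS replicate 2 in the last. DESeq2 called 324 genes in SS+NAC against control.

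Among the named genes, signs turned in SS against control with the length offset for SELENOF (-0.0295), SELENOK (-0.10), SELENOS (-0.0095), SELENOW (-0.0060), RPL30 (-0.0921), CALR (-0.15), PEMT (-0.11), ATP2A2 (0.0731), TXNRD1 (0.11), UGGT1 (0.13) and ORAI1 (-0.0540). With the replicate block added these were -0.0293, -0.10, -0.0094, -0.0060, -0.0918, -0.15, -0.11, 0.0733, 0.11, 0.13 and -0.0536. In SS against SS+NAC, among the members, they turned for SELENOF (-0.0752, with the block -0.0739), SELENOM (-0.0475 and -0.0478), SELENOS (-0.23 in both) and SELENOW (-0.18 in both). In SS+NAC against control, SELENOH was -0.0015 with RLE size factors and -0.0014 with DESeq2. Leaving out single libraries there gave -0.0388 to 0.1607 for SELENOF, -0.0242 to 0.0610 for SELENOH and -0.0602 to 0.1121 for SELENON. The cause was not tested.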
